A study of Mus musculus with 4 samples.

Results

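The genes described here are 10 feedback inhibitors of MAP kinase signalling: the MAP kinase phosphatases Dusp1, Dusp2, Dusp4, Dusp5, Dusp6 and Dusp10, and the Sprouty and Spred proteins Spry1, Spry2, Spred1 and Spred2. They were taken by gene symbol, with every probe set of the array that carries 1 of these symbols. This gave 23 of 45037 probe sets, for 10 of 18193 genes. Of these genes 6 had 1 probe set, whereas Dusp10 and Spry2 had 2 each, Spred2 had 5 and Spred1 had 8. A probe set is a group of short probes that together report 1 intensity for a transcript.

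MAP kinases are switched on by phosphorylation of a threonine and a tyrosine, and dual-specificity phosphatases remove both phosphates. Many of these phosphatases, and the Sprouty and Spred proteins, are themselves transcribed in response to MAP kinase activity, so they form a negative feedback loop. In the thymus, signals from the T-cell receptor (TCR) through Ras and ERK guide the selection of CD4+CD8+ double-positive (DP) thymocytes, and p38 and JNK act beside them.

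DP cells were profiled on 4 Affymetrix Mouse 430 2.0 arrays, from 100 ng of total RNA each, all from the C57/BLACK6 background. The 2 control arrays held DP cells of normal thymus with the genotype WT. The 2 tumour arrays held DP cells of a peripheral tumour (thymoma) with the genotype T-ALL that over-expresses Notch1-IC, the active intracellular part of the Notch1 receptor. The promoter of Notch1-IC, the age of the mice and the number of animals behind an array are not stated in the labels. Nothing says that the arrays of a group come from separate animals, so p-values cover just the spread between samples, and part of it may be technical. The sample type label names the tumour for all 4 samples, against the other labels of the 2 controls.

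The arrays were checked before the members were compared. Notch1 rose 6.15-fold in the tumour arrays, and it is not known whether its probe set also detects the introduced sequence. Of 9 measured DP markers, 7 fell and 1 rose, with a summed intensity of 43007 and 43848 in the normal arrays and of 16913 and 16902 in the tumour arrays, yet all 9 lay above background in at least 1 array of each group. Background is the array's brightest control probe set without target, and the markers of other cells were set against it. Of 10 macrophage markers 8 rose (summed intensity 99.5 and 146 in normal, 1764 and 1868 in tumour), and C1qa, C1qc, Cd14, Fcgr3 and Mertk did not exceed background in either normal array. Among 8 neutrophil markers 7 rose (180 and 242 against 2118 and 2194), with Ltf and Lcn2 not above background in either normal array. Dendritic (4 of 8 rose, 238 and 232 against 813 and 1135) and NK markers (3 of 5 rose, 1167 and 1149 against 5317 and 5313) were also higher in sum, while 1 of 5 B cell markers fell (371 and 336 against 111 and 139). Gzma made up most of the NK sum (1034 and 1035 against 5030 and 5040), and Klrd1 and Nkg7 rose too. Cd79b, the B cell marker that fell, made up most of that sum in the normal arrays (321 and 294). The NK marker Ncr1 and the B cell markers Cd79a and Pax5 did not exceed background on any array. Of 10 stromal, endothelial and epithelial markers, 1 rose and 2 fell (470 and 392 against 358 and 361). The 3' to 5' ratio of the beta-actin control probe sets was 1.24 ± 0.056 in the normal and 2.49 ± 0.050 in the tumour arrays (SD, n = 2), and Xist, the RNA of the silenced X chromosome, was at least 375-fold lower in the tumour arrays. These differences run with the groups, and their part in the results on the phosphatases was not tested. In such bulk samples, fewer cells of a type and less RNA per cell cannot be told apart.

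The phosphatases moved in both directions. On the probe set with the highest mean of each gene, Dusp4 and Dusp10 rose in the tumour cells, Dusp1, Dusp2 and Dusp6 fell, and Spry2 fell to background. Dusp5, Spry1, Spred1 and Spred2 did not pass the test. That is 2 of 10 genes higher and 4 lower, against 16.3% higher and 11.7% lower among the highest probe sets of all 18193 genes. Calls in either direction made up 28.0% of all genes. Over all probe sets of the members, 3 of 23 were higher and 4 lower, against 11.3% and 11.5% of 45037 (22.8% in either direction). Without normal replicate 2, 2 of 23 were lower. The median log2 fold change was -0.27 over the 10 genes and 0.09 over all genes. A call means an adjusted p below 0.05 in limma with a variance prior that follows the level of expression (trend and robust), adjusted by Benjamini-Hochberg over all 45037 probe sets. With limma's default prior, 0 of 45037 probe sets passed, 11337 had an unadjusted p below 0.05, 8 of them among the 23 members, and the lowest adjusted p of a member was 0.0691. The 2 normal and 2 tumour arrays did not overlap for 8 of the 10 genes, 3 with tumour above (33.7% of all genes) and 5 with tumour below (26.4%). Over the 23 probe sets, tumour lay above in 10 (27.6% of all probe sets) and below in 6 (29.1%).

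**Figure D1:**
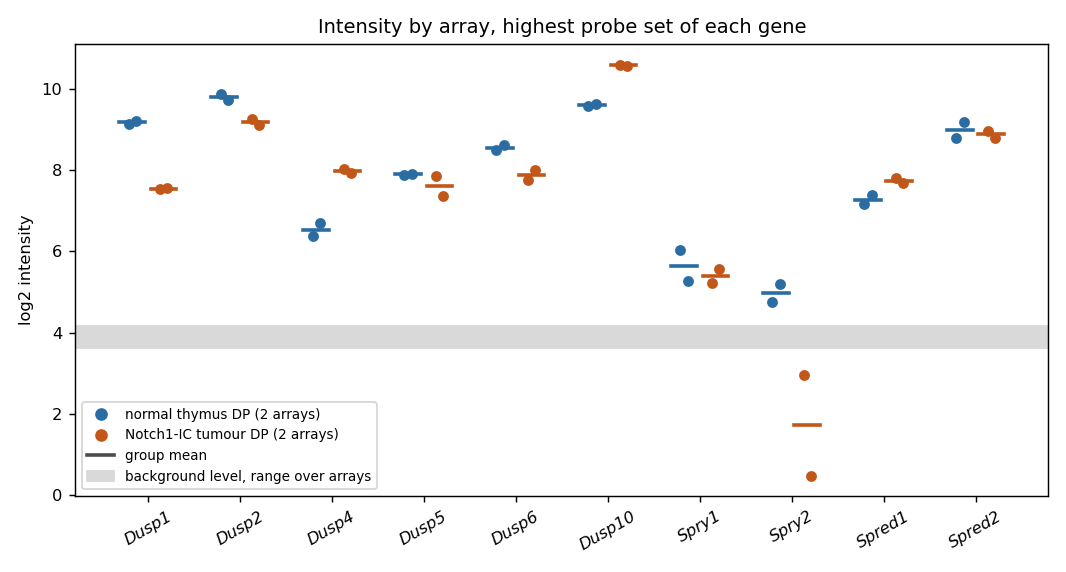
The plot gives the log2 intensity (vertical axis) of each gene's highest probe set, with 1 point per array, 2 normal (blue) and 2 tumour (orange), bars for group means and a grey band for the background levels of the arrays. Dusp1 lies at a mean of 9.17 in normal and 7.53 in tumour arrays, Dusp4 at 6.53 and 7.97, and only Spry2 lies below the band, on both tumour arrays.

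The DNA upstream of the start sites was set beside these opposite changes. The RefSeq promoter table (build GRCm38.p6) held 9 of the 10 genes; Dusp4 was the other. The 250 bases before the start are printed 5′ to 3′ on the strand of the gene for the phosphatases with an entry, Dusp1, Dusp2 and Dusp6 because they fell, Dusp10 because it rose and Dusp5 for its motif pair. Capitals mark matches, on either strand, to the cAMP response element (CRE) TGACGTCA or its core TGACG, AP-1 TGANTCA, ETS CCGGAAG, EGR GCGNGGGCG, the Notch partner RBPJ GTGGGAA, or the CArG box of serum response factor.
Dusp1: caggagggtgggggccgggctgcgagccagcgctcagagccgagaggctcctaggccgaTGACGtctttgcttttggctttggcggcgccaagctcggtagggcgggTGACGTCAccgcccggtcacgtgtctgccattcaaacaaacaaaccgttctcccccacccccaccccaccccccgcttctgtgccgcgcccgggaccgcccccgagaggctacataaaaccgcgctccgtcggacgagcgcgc
Dusp2: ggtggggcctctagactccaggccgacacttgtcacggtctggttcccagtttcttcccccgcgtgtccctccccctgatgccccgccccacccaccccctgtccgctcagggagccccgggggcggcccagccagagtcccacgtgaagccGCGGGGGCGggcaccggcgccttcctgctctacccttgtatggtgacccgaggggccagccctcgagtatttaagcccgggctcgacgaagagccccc
Dusp6: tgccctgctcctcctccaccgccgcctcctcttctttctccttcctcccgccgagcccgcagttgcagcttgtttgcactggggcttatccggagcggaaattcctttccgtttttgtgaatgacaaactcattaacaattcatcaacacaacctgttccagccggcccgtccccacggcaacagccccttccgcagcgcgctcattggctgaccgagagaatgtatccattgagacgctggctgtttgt
Dusp10: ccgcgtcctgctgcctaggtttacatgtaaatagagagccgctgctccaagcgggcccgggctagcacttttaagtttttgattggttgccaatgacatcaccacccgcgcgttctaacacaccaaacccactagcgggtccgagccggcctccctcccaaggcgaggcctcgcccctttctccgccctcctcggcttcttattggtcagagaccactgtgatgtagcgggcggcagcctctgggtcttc
Dusp5: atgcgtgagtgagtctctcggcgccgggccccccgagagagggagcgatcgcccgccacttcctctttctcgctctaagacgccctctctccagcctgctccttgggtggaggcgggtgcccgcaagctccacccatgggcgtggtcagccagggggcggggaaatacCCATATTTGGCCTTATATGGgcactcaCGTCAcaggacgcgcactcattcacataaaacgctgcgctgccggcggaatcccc

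The windows are chr17:26508473-26508722 (minus strand) for Dusp1, chr2:127335909-127336158 (plus) for Dusp2, chr10:99262981-99263230 (plus) for Dusp6, chr1:184034131-184034380 (plus) for Dusp10 and chr19:53528895-53529144 (plus) for Dusp5. Dusp1 held 1 full CRE, which begins 143 bases before the start and which 1.55% of 32851 promoter windows of this length contain. A further CRE core (17.8% of windows), outside the full CRE, begins 191 bases before the start. Dusp2 held 1 EGR match (4.70% of windows). In Dusp5, 2 adjoining CArG boxes begin 82 and 72 bases before the start (1.47% of windows hold at least 1), followed by a CRE core. The windows of Dusp6 and Dusp10 held none of these letters, and the same was true of Spry1, Spry2 and Spred1, while Spred2 held 1 CRE core. The RBPJ, AP-1 and ETS letters were found in none of the 9 windows, against 5.42%, 6.75% and 6.91% of all windows. A match describes letters and does not show a binding site.

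Among the inducible nuclear phosphatases, Dusp1 and Dusp2 fell and Dusp4 rose. Dusp1 (MKP-1, chromosome 17), an immediate early gene that acts on p38, JNK and ERK, had intensities of 564 and 588 in the normal arrays and 184 and 187 in the tumour arrays. The tumour arrays thus lay well below both normal ones, and replicates of a group lay close together. The difference was -1.63 ± 0.12 on the log2 scale (SE, n = 2 per group, adjusted p = 8.19e-06), a 3.10-fold fall. Leaving out any single array gave -1.66 to -1.60. Its window held the full CRE printed above, and a link between that motif and the fall was not tested.

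Dusp2 (PAC-1, chromosome 2), a phosphatase known from activated lymphocytes that acts on ERK, had intensities of 935 and 838 in normal and 615 and 549 in tumour arrays. The groups did not overlap, but the fall was smaller than that of Dusp1. It was -0.61 ± 0.11 (log2, adjusted p = 0.00218), a 1.52-fold fall with a 95% interval from -0.84 to -0.37.

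Dusp4 (MKP-2, chromosome 8), which acts on ERK and JNK in the nucleus, ran the other way. Its intensities were 82.6 and 103 in normal arrays and 261 and 242 in tumour arrays, so both tumour arrays lay far above both normal ones. The rise was 1.44 ± 0.18 (log2, adjusted p = 0.000239), a 2.72-fold difference. Without single arrays it was 1.28 to 1.61.

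Dusp5 (chromosome 19), a nuclear phosphatase selective for ERK, had intensities of 236 and 238 in normal arrays. In the tumour arrays it had 232 in replicate 1, close to normal, and 165 in replicate 2. The difference of -0.28 ± 0.18 (log2) did not pass (adjusted p = 0.343), with a 95% interval from -0.67 to 0.12. Without tumour replicate 2 the difference was -0.03, so its size came mainly from that array.

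Dusp6 (MKP-3, chromosome 10), which removes the phosphates of ERK in the cytoplasm and is itself induced by ERK, was lower in the tumour arrays. It had intensities of 358 and 389 in normal arrays and 216 and 256 in tumour arrays. Groups did not overlap, yet the tumour replicates differed more than those of Dusp1. The fall was -0.66 ± 0.14 (log2, adjusted p = 0.00567), 1.59-fold. Leaving out normal replicate 2 ended its call (-0.60, adjusted p = 0.0671), and so did leaving out tumour replicate 1 (-0.54, adjusted p = 0.0594), within a range of adjusted p from 1.96e-05 to 0.192 over 15 alternatives.

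Dusp10 (MKP-5, chromosome 1), which acts on JNK and p38 rather than ERK, was the other phosphatase that rose. Its more intense probe set (1417164_at) read 758 and 785 in normal arrays and 1544 and 1510 in tumour arrays. Replicates differed little against the gap between the groups. The rise was 0.98 ± 0.083 (log2, adjusted p = 2.24e-05), a 1.98-fold difference. The dimmer probe set (1417163_at) read 19.6 and 19.6 in normal and 44.5 and 51.0 in tumour arrays, just above background in the former. It gave 1.28 ± 0.37 (adjusted p = 0.0314). The call on the dimmer probe set ended without any 1 of the 4 arrays (adjusted p 0.0679 to 0.120, against 0.0151 to 0.216 over 15 alternatives), with differences of 1.18 to 1.38.

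Ratios of probe sets within an array do not change when the whole array is multiplied by a constant. Normalization that equalises the distributions of arrays can still alter them. Only the change of a ratio between groups can be read. The log2 ratio of Dusp4 to Dusp1 was -2.77 and -2.51 in the normal arrays and 0.51 and 0.37 in the tumour arrays, a rise of 3.08 or 8.44-fold. Dusp10 to Dusp1 rose by 2.62, with the normal arrays at 0.43 and 0.42 and the tumour arrays at 3.07 and 3.01. For Dusp4 to Dusp6 the change was 2.11 and for Dusp10 to Dusp6 it was 1.65. Each of these changes is the difference of 2 fold changes given above, for genes chosen because they had moved in opposite directions, so the gap between the groups is no further evidence. An exact permutation of 2 against 2 arrays cannot go below a two-sided p of 0.333, so no test is given. Between the phosphatases that rose, the ratio of Dusp4 to Dusp10 changed by 0.46, with a replicate SD of 0.19 in the normal and 0.054 in the tumour arrays.

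**Figure D2:**
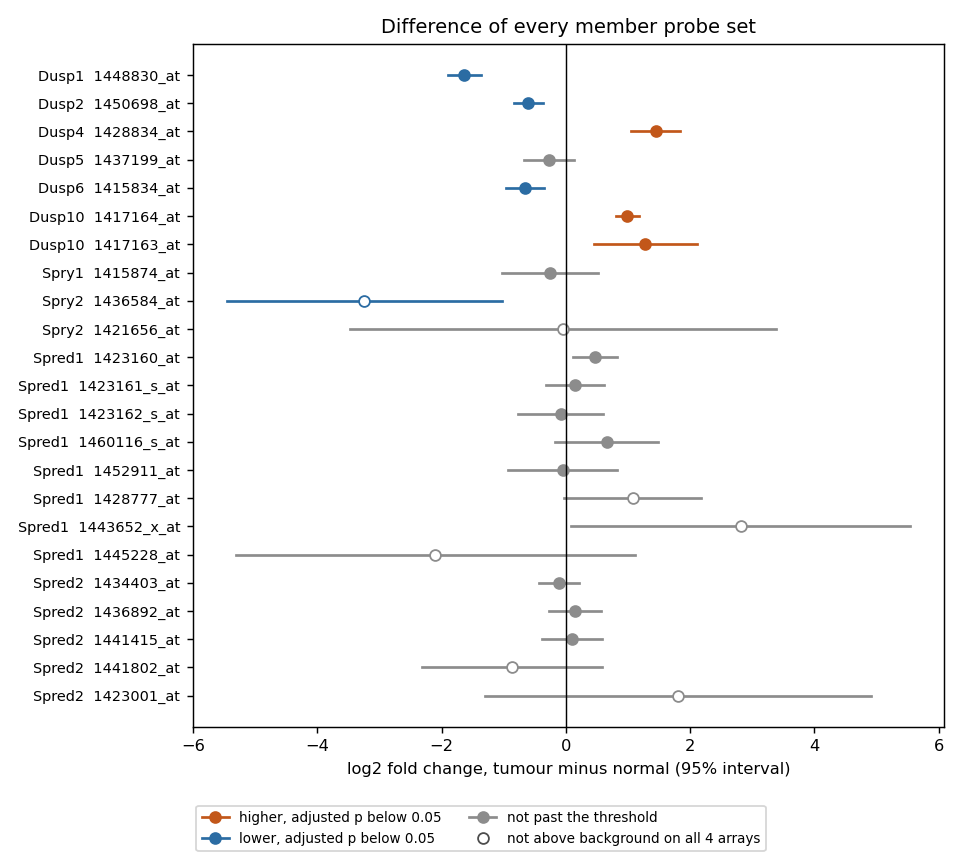
The plot gives the log2 fold change (tumour minus normal, horizontal axis) of all 23 probe sets with limma's 95% interval, in orange where higher, blue where lower and grey where the threshold was not passed; open points were not above background on all 4 arrays. Intervals are narrow for Dusp1 (-1.90 to -1.37) and Dusp10 (0.80 to 1.17) and wide for dim probe sets such as that of Spry2 (-5.46 to -1.03).

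Spry1 lay above background on all 4 arrays, and Spry2 only in the normal ones. Sprouty proteins block the path from receptor tyrosine kinases to Ras and ERK. Spry1 (chromosome 3), the member best known from T cells, had intensities of 64.9 and 38.7 in normal and 37.1 and 47.0 in tumour arrays. The groups overlapped, with a difference of -0.26 ± 0.34 (log2, adjusted p = 0.677) and a 95% interval from -1.04 to 0.51.

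Spry2 (chromosome 14) was above background only in normal DP cells. Its more intense probe set (1436584_at) read 26.9 and 36.4 in normal arrays and 7.80 and 1.40 in tumour arrays, where background levels were 17.8 and 13.3. Both tumour arrays thus give only an upper bound. Against that background the fall was at least 2.03-fold, a bound that was not itself tested. The probe set's adjusted p of 0.0408 belongs to its fitted log2 difference of -3.24 ± 0.98, which is no measure of the size of the fall. Its call ended without normal replicate 1 (adjusted p = 0.219) or normal replicate 2 (adjusted p = 0.299), against 0.00931 to 0.299 over 14 alternatives. The other probe set (1421656_at) lay at or below background on all 4 arrays (9.77 and 1.02 against 2.22 and 4.22) and carries no information on direction.

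Spred proteins sit at the membrane and, with neurofibromin, keep Ras inactive. The most intense of 8 Spred1 probe sets (1423160_at, chromosome 2) read 142 and 168 in normal and 221 and 204 in tumour arrays. The tumour arrays lay above the normal ones, but the difference of 0.46 ± 0.16 (log2) did not pass (adjusted p = 0.0666, 95% interval 0.11 to 0.82). It passed in 3 of 15 alternatives, with adjusted p from 0.0240 to 0.587 over them. Scaling to spiked controls turned it to -0.14. The other 7 Spred1 probe sets did not pass either, and their log2 differences ran from -2.10 to 2.82. Of these, 1423161_s_at read 79.2 and 82.5 against 92.0 and 87.2, and 1423162_s_at read 54.3 and 52.8 against 63.0 and 40.6. The probe sets at both ends of that range, 1445228_at and 1443652_x_at, lay at or below background on 4 and 3 of the 4 arrays.

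Spred2 (chromosome 11) showed little difference on its most intense probe set (1434403_at), with 444 and 577 in normal and 497 and 442 in tumour arrays. The groups overlapped. The difference was -0.11 ± 0.14 (log2, adjusted p = 0.664), with a 95% interval from -0.43 to 0.20. The other 4 probe sets ranged from -0.87 to 1.80 and did not pass. The lowest (1441802_at) read 50.1 and 33.6 in normal arrays but 10.4 and 48.4 in tumour arrays, and passed only without tumour replicate 2 (-1.98, adjusted p = 0.0342, against 0.0342 to 0.770 over 15 alternatives).

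Scaling affects how many members count as higher or lower, with 3 of 23 probe sets higher and 4 lower as deposited and 2 and 6 with scaling to spiked controls. The BioB, BioC and BioD controls, bacterial transcripts added to the hybridization mix of every array, lay 0.60 higher (log2) in the tumour arrays. They do not track the amount of RNA per cell. Scaling all arrays to them moved the median over all probe sets from -0.02 to -0.63 and the calls from 5084 higher and 5189 lower to 2074 and 11539. Under it the log2 differences were 0.84 for Dusp4 and 0.38 for the more intense probe set of Dusp10, both still past the threshold, -2.24 for Dusp1, -1.21 for Dusp2 and -1.27 for Dusp6. Dusp5 (-0.88, adjusted p = 0.00366) and the most intense Spred2 probe set (-0.71, adjusted p = 0.00457) then passed as lower, against 0.00366 to 0.920 and 0.00457 to 0.945 over the 15 alternatives of each. The dimmer Dusp10 probe set no longer passed (0.68, adjusted p = 0.216).

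**Figure D3:**
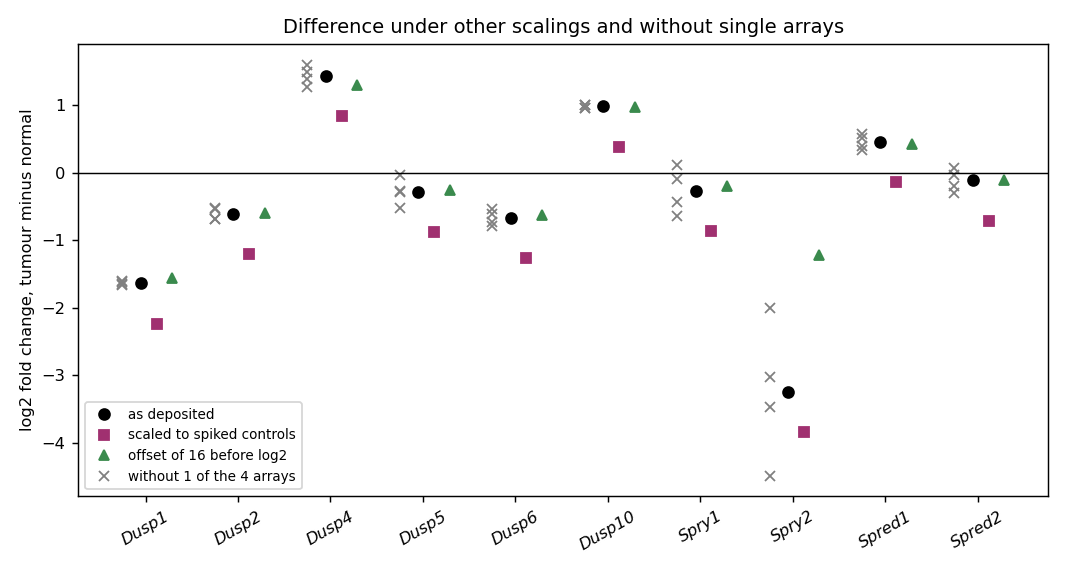
The plot gives the log2 fold change (vertical axis) of each gene's highest probe set as deposited (black), scaled to spiked controls (purple), with an offset of 16 before log2 (green) and without each single array (grey crosses). Dusp4 stays above 0 in all of these, from 0.84 to 1.61, Dusp1 stays below 0, from -2.24 to -1.55, and Spred1 crosses 0.

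Other genes of the pathway were then set beside the members, on the highest probe set of each. Of 80 listed genes 73 were measured, of which 20 rose, 15 fell and 38 did not pass, against the 16.3% and 11.7% of all genes above. With scaling to spiked controls (spike scaling), 1272 of all 18193 genes were higher and 5071 lower, and the counts under it below are to be read against these. Among 8 other MAP kinase phosphatases 3 rose and 0 fell (1 and 2 with spike scaling), with a median of 0.74. Dusp8 exceeded background on no array, Dusp9 on 1 array of each group and Dusp14 on 1 normal array. The median thus rests partly on dim genes. Dusp16 (-0.55, log2) and Dusp19 (-0.37) lay above background on every array. Both were lower in the tumour arrays but did not pass (adjusted p = 0.0910 and 0.0556). Dusp22, which acts on JNK signalling and on the kinase Lck, read 48.4 and 47.4 in normal and 319 and 319 in tumour arrays, a rise of 2.74 ± 0.17 (log2, adjusted p = 3.92e-06). Dusp7, a cytoplasmic ERK phosphatase like Dusp6, rose by 1.01 ± 0.28 (adjusted p = 0.0266) on a probe set marked as open to cross-hybridization. Dusp3, an atypical phosphatase of ERK and JNK, did not exceed background in either normal array and was at least 2.64-fold higher in the tumour. Its adjusted p of 0.0291 belongs to the fitted difference, not to that bound. Both Dusp7 (median 0.55) and Dusp3 (median 1.46) had 1 of 3 probe sets called. The calls of Dusp7 and Dusp3 each ended without 3 of the 4 arrays in turn: normal replicate 2 for Dusp7 (adjusted p = 0.166), normal replicate 1 for Dusp3 (adjusted p = 0.0802), and either tumour array for both (adjusted p 0.0820 to 0.244). With spike scaling both calls were lost too (adjusted p = 0.326 and 0.0569). Over 14 alternatives each, the adjusted p ran from 0.00658 to 0.326 and from 0.00308 to 0.244.

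Receptor-level feedback genes were mixed as well. Of 12 other Sprouty, Spred and receptor feedback genes 4 rose and 2 fell (3 and 4 with spike scaling), with a median of -0.18. Errfi1, an inhibitor of the EGF receptor family, fell by 3.75 ± 0.27 (log2, adjusted p = 8.25e-06), from 189 and 192 to 13.3 and 14.9, with tumour replicate 1 not above background. Cblb, a ubiquitin ligase that restrains T-cell activation, rose by 1.59 ± 0.11, and Lrig1, which lowers receptor tyrosine kinases, rose by 1.54 ± 0.11. Pebp1, the Raf kinase inhibitor protein, rose by 0.96 ± 0.072, again on a probe set open to cross-hybridization. Spry3, Spry4 and Spred3 belong to the families of the members, and none of them passed. Spry3 and Spred3 exceeded background on no array and Spry4 on 1 array of each group, so they carry no information on direction.

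Of 13 Ras activators and Ras GAPs, 1 rose and 5 fell (1 and 9 with spike scaling), with a median of -0.26. Rasgrp1, which couples the TCR to Ras in thymocytes, fell by 1.66 ± 0.070 (log2, adjusted p = 4.18e-07), from 3442 and 3467 to 1080 and 1099. Rasal3, a GAP that turns Ras off, fell by 1.43 ± 0.12, while the exchange factor Sos2 rose by 1.27 ± 0.15. Dab2ip, another Ras GAP, fell by 1.29 ± 0.35 (adjusted p = 0.0251), with tumour replicate 1 (19.1) close to background (17.8). That call needed both normal arrays (adjusted p = 0.152 and 0.178 without each) and tumour replicate 1 (adjusted p = 0.0629), against 0.00267 to 0.178 over 15 alternatives.

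Of 9 measured genes on the path from Ras through Raf and MEK, 3 rose and 2 fell (2 and 5 with spike scaling), with a median of 0.23. The ERK kinases themselves were not analysed here. The 3 that rose encode a GTPase, a scaffold and an adaptor, and both that fell encode kinases. Rras2, the GTPase, which is related to Ras, rose by 1.99 ± 0.082 (log2, adjusted p = 3.86e-07), from 553 and 566 to 2267 and 2181. Ksr1, a scaffold for Raf and MEK, rose by 1.22 ± 0.20 on its highest probe set, while the median of its 3 probe sets was -0.80. The adaptor was Lamtor3 (0.42, named after its values were seen). Braf fell by 0.67 ± 0.17, with 3 of its 9 probe sets called lower. Map2k2 (MEK2) fell by 0.56 ± 0.11 on its highest probe set, while the median of its 2 probe sets was -0.13 and the other was not called. The call of Braf ended without either normal array or tumour replicate 1 (adjusted p 0.0942 to 0.107, against 0.000323 to 0.186 over 15 alternatives).

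On the p38, JNK and ERK5 side, 4 of 15 genes rose and 3 fell (2 and 10 with spike scaling), with a median of -0.18. Mapk14, the p38 alpha kinase, fell by 1.52 ± 0.11 (log2, adjusted p = 7.45e-06), from 769 and 837 to 279 and 282, while 1 of its 6 probe sets passed. Map2k6, which activates p38, fell by 1.33 ± 0.18. Mapkapk2, a kinase downstream of p38, rose by 1.54 ± 0.18, and Map3k5 (ASK1), which acts above p38 and JNK, rose by 1.48 ± 0.19.

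Of 16 genes listed as induced by ERK, 5 rose and 3 fell (5 and 6 with spike scaling), with a median of 0.26. Those that rose included Bcl2l11, named after its values were seen (0.88 ± 0.070, log2, adjusted p = 1.57e-05). Bcl2l11 is not an established ERK-induced gene. Fos fell by 2.67 ± 0.19 (log2, adjusted p = 8.49e-06), from 425 and 453 to 82.7 and 57.7. Egr2 fell by 1.75 ± 0.18, from 262 and 222 to 73.9 and 69.8. Egr1, named after its values were seen, had 2783 and 2749 in normal and 2691 and 2940 in tumour arrays, and its groups overlapped. Etv5 rose by 1.57 ± 0.25 (adjusted p = 0.00127), from 37.38 and 33.35 to 100.74 and 108.65. Phlda1 rose by 1.38 ± 0.074 (adjusted p = 1.44e-06), from 1021 and 1007 to 2678 and 2595. Id3 fell by 0.72 ± 0.12 (adjusted p = 0.00203). Etv5, Phlda1 and Id3, also named after their values were seen, lay above background on every array. Ier3 rose by 1.96 ± 0.42 (adjusted p = 0.00688) and Ccnd1, cyclin D1, by 1.92 ± 0.40 (adjusted p = 0.00671). Normal replicate 2 of Ier3 did not exceed background (11.3), and that of Ccnd1 lay just above it (12.4 against 12.3). The sizes of both rises are thus uncertain, and 1 of the 3 Ccnd1 probe sets was called. Ier3 lost its call without tumour replicate 2 (adjusted p = 0.0591, against 0.000744 to 0.0933 over 14 alternatives), and Ccnd1 without tumour replicate 1 (adjusted p = 0.0618, against 0.000245 to 0.117 over 15 alternatives). Over this list, as over the phosphatases, calls thus ran in both directions.

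**Figure D4:**
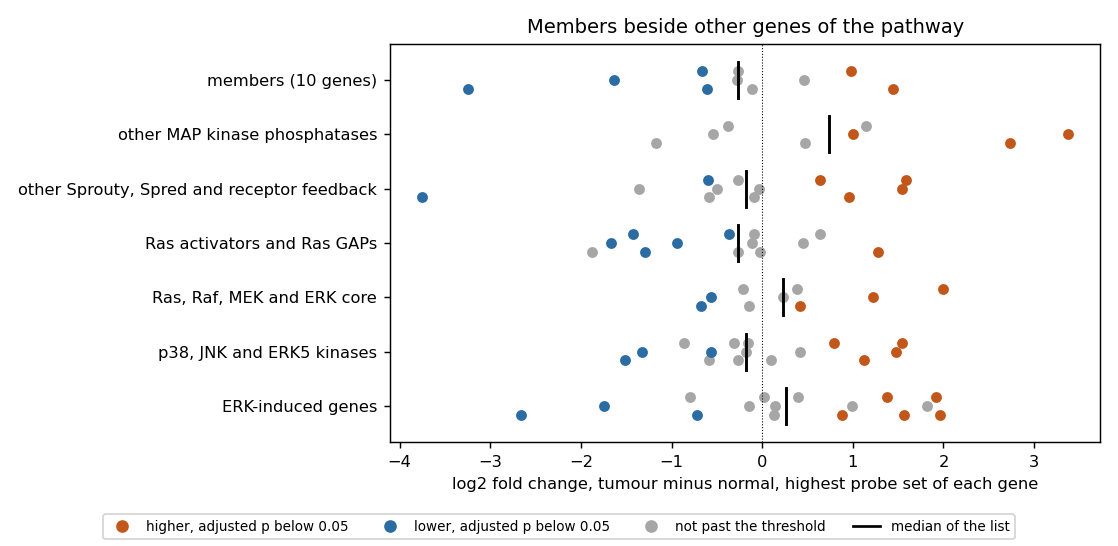
The plot gives the log2 fold change (horizontal axis) of the highest probe set of each gene, 1 row per list, in orange where higher, blue where lower and grey where the threshold was not passed, with a black line at the median of the list. Every list spans both sides of 0, and the medians run from -0.27 for the members to 0.74 for the other MAP kinase phosphatases.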

How the data were processed

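RNA of 2 normal and 2 tumour samples was hybridized to Affymetrix Mouse 430 2.0 arrays. The authors deposited 1 linear intensity per probe set and array; the submitters' processing notes name RMA. Intensities run from 0.08 to 19270, and 77.7% of sorted ranks agree within 1% on all arrays, so distributions had been equalised, which hides a shift common to all genes. The array number limits the precision.

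Log2 was taken with no offset or filter. Of 45037 probe sets (64 controls left out), 34945 had 1 gene symbol in the GEO platform annotation, 932 several and 9160 none; 0 of those with several named a member. All 10 member symbols were in the RefSeq table of GRCm38.p6, and the Entrez numbers of all 23 probe sets gave the same symbols. Groups came from the titles. Limma 3.58.1 in R 4.3.3 (lmFit, eBayes with trend and robust) tested all probe sets, at 0.05 after Benjamini-Hochberg. Replicates spread more at low levels (median SD of log2 1.31 in the dimmest and 0.102 in the brightest 25% of probe sets), which the default prior does not model. The method was tested on simulated data. Their spread was made to follow the level of expression, as this prior assumes, so that test cannot support the choice of prior. Members, lists and this prior were chosen with earlier results of these data known.

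Background was the highest of 27 bacterial control probe sets per array (15.95, 12.3, 17.8 and 13.3). Where neither array of a group exceeded it, folds are given as "at least", against that level. Spike scaling used 14 control probe sets. Named list genes were, per list, up to 4 called genes with the largest change and above background in a group; no gene was named for likeness of pattern over 4 arrays. Alternatives were the default prior, 3 other scalings, an offset, filters on dim or shared probe sets, thresholds, a replicate block, single arrays left out and fits on 1 value per gene.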

Additional observations from a re-analysis of the deposited data

How the results depend on the processing

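Of 23 member probe sets, 3 were higher and 4 lower. Limma's default prior left 0 higher and 0 lower over probe sets, and 0 higher and 1 lower (Dusp1, adjusted p = 0.0400) when fitted over 18193 genes, against 2 and 4 genes. That fit called 759 of all genes higher and 401 lower. A fold minimum of 2 left 2 lower. Leaving out single arrays gave 2 higher each time and 2 to 5 lower, with 2 without normal replicate 2. With the replicate number as a block, 4 were higher and 4 lower, the added one being Spred1 1423160_at (adjusted p = 0.0240). The numbers pair samples by number only; deviations of same-numbered arrays correlated at 0.25 over 10772 probe sets. Array medians, renewed quantile normalization and the offset of 16 kept the call of all 23. The mean of probe sets per gene gave 2 higher and 3 lower genes, without Spry2 (adjusted p = 0.311), against 1865 higher and 1764 lower over all genes. Low signal over background limits Spry2 and several Spred1 and Spred2 probe sets; 16 of the 23 lay above it on all 4 arrays.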

Other observations

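The array held 10 further dual-specificity phosphatase genes that are neither members nor in the lists, taken by symbol after the values were seen. Of these 1 was higher (16.3% of all genes) and 0 were lower (11.7%) in limma with the trend and robust prior. However, Dusp13, Dusp15, Dusp18 and Dusp27 exceeded background on no array, and Dusp21 and Dusp26 on 1 normal array each. Those genes carry little or no information on direction. Only Dusp11, Dusp12 and Dusp28 lay above background on every array. The gene called higher was Dusp28, with intensities of 103 and 109 in normal and 209 and 156 in tumour arrays. Its log2 difference was 0.77 ± 0.19 (adjusted p = 0.0164), and 0.17 with spike scaling, where it did not pass. Its call also ended without either normal array or tumour replicate 1 (adjusted p 0.0803 to 0.130, against 0.000690 to 0.583 over 15 alternatives). Dusp11, a phosphatase of RNA, read 1013 and 921 in normal and 1039 and 944 in tumour arrays, a difference of 0.04 ± 0.095 (adjusted p = 0.851).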
